A study of Mus musculus with 6 samples.

Results

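The genes described here are 9 genes of the centrosome and mitotic spindle whose mutation causes primary microcephaly in humans: Aspm, Wdr62, Cdk5rap2, Cenpj, Stil, Cep135, Cep152, Cep63 and Mcph1. They were chosen by name, and each symbol matched 1 of the 52636 gene rows of the deposited table. RNA came from cells sorted for the surface protein Prominin1 from mouse forebrains at E12.5, labelled as cortical radial glia. The mutants, called SmadNes (Smad1wt/fl;Smad5wt/fl;Nestin:Cre+/0), were heterozygous for floxed alleles of Smad1 and Smad5, transducers of bone morphogenetic protein signals, and carried a Cre transgene under the Nestin promoter, which is active in neural progenitors. The controls were littermates with these floxed alleles but without Cre (Smad1wt/fl;Smad5wt/fl;Nestin:Cre0/0). A wild-type allele of each gene therefore remains in both genotypes. Each genotype had 3 pools of cells, on a background mixed from CD1, 129/ola and C57BL6, and the pool names SF3, SF4 and SF5_6 occur in both genotypes. The pools sequenced were those with the best RNA integrity, and the number of embryos in a pool is not given in the labels.

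Radial glia divide at the ventricular surface of the cortex, and each division needs 2 centrosomes to build a bipolar spindle. A centrosome is a pair of centrioles surrounded by pericentriolar material, which nucleates microtubules. The centrioles are copied once per cell cycle, by a scaffold of Cep63 and Cep152 around the parent centriole, by Stil and Cep135 in the cartwheel of the new one, and by Cenpj, which lengthens it. Cdk5rap2 anchors microtubule-nucleating complexes in the pericentriolar material, Aspm and Wdr62 sit at the spindle poles, and Mcph1 restrains premature chromosome condensation. Loss of these proteins depletes neural progenitors, and a small cortex is the outcome they are known for.

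The 6 libraries held between 32997423 and 40744672 expected counts. Both targeted genes had higher CPM in SmadNes in 3 of 3 pairs of pools of the same name. Smad5 stood at 391 ± 18.8 CPM in SmadNes and 292 ± 6.74 CPM in controls, and Smad1 at 88.5 ± 3.83 and 75.6 ± 2.58 CPM (SD, n = 3 each). CPM are counts scaled to library size after TMM normalization. Counts over a whole gene include exons that Cre leaves in place, so the deletion itself was not checked and each direction given here rests on the labels. Prom1, the sort marker, stood at 124 ± 11.97 CPM in SmadNes and 119.5 ± 11.8 CPM in controls, and the neuronal tubulin Tubb3 at 848 ± 30.6 and 903 ± 54.8 CPM, so the sorted cells were not free of neuronal RNA. In such bulk samples fewer cells of a type and less RNA per cell cannot be told apart.

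All 9 genes were well expressed, with between 552 and 7574 counts per library, and all 9 passed the filter on low counts. Compared per length of annotated exon, the spindle-pole gene Aspm stood highest at 15.04 ± 1.86 CPM per kb (SD, n = 6 libraries), followed by Cdk5rap2 at 13.6 ± 0.710 and Cenpj at 10.0 ± 0.379 CPM per kb. The genes of the early centriole followed, with Stil at 6.76 ± 0.825, Cep152 at 5.86 ± 0.846 and Cep135 at 4.85 ± 0.498 CPM per kb. Wdr62 stood at 4.46 ± 0.499, Cep63 at 3.71 ± 0.139 and Mcph1, the lowest, at 2.27 ± 0.141 CPM per kb. Aspm lay above 79.7% and Mcph1 above 38.8% of the 16838 tested genes with a known length.

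Not every step of this order exceeded the spread between libraries. Aspm was above Cdk5rap2 in 5 of 6 libraries, with overlapping ranges, and Cep135 was above Wdr62 in 3 of 6. Stil and Cep152, and Cep152 and Cep135, kept their order within each of the 6 libraries, although their ranges overlapped between libraries. The ranges of Cdk5rap2 and Cenpj, of Cenpj and Stil, of Wdr62 and Cep63, and of Cep63 and Mcph1 did not overlap. The order also depends on the length used. With the longest annotated transcript in place of all exons together, Cep63 stood at 6.08 and Mcph1 at 3.81 CPM per kb, and Cep63 moved above Cep152 and Wdr62. Cep135, at 6.197 CPM per kb, then also stood above Cep152, at 5.86.

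**Figure D1:**
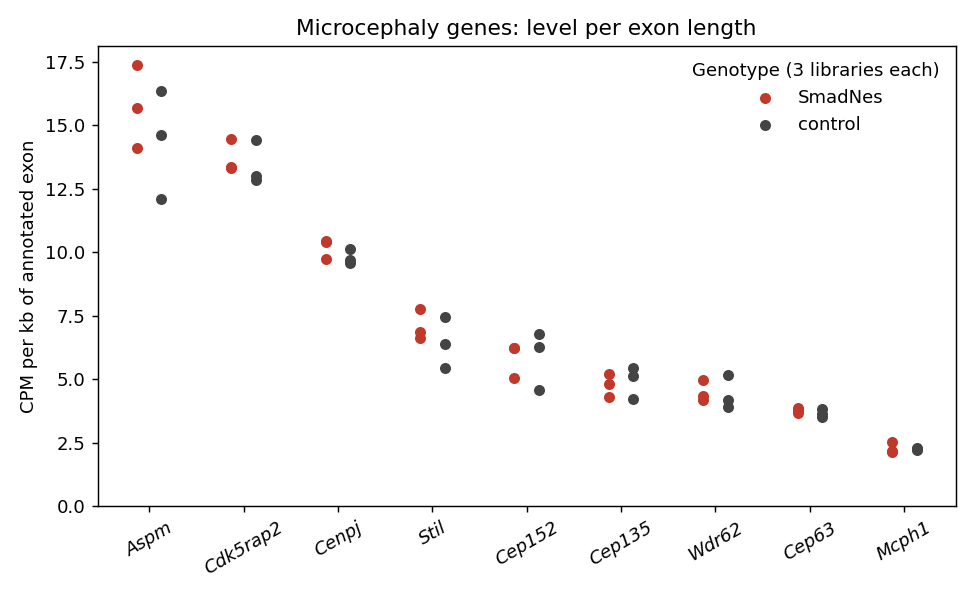
Level of each gene in CPM per kb of annotated exon (y axis, from 0) for the 3 SmadNes libraries (red, left) and the 3 control libraries (dark grey, right). Aspm and Cdk5rap2 lie highest and Mcph1 lowest, and the red and dark grey points overlap for all 9 genes.

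The upstream regions of 4 of the genes are shown, those of Aspm, Stil and Cep152, on average lowest in SF3, and of Wdr62, highest in SF4, as described below. Cep135 was also lowest in SF3 and Cdk5rap2 also highest in SF4, and their regions are not shown. They are RefSeq sequences of the GRCm38.p6 build, 250 bases before the annotated start, in the direction of transcription. Capitals mark exact matches to 3 motifs on either strand: the CCAAT box (which reads ATTGG on the other strand), an E2F site (TTCCCGC, its form TTGGCGC, its form TTCGCGC or its form TTGCCGC) and a GC-rich motif of SMAD1 and SMAD5 (GGCGCC). The last motif shares letters with the second E2F form. The regions lie at chr1:139454523-139454772 on the plus strand (Aspm), chr4:114999868-115000117 on the plus strand (Stil), chr2:125625114-125625363 on the minus strand (Cep152) and chr7:30280422-30280671 on the minus strand (Wdr62).
Aspm: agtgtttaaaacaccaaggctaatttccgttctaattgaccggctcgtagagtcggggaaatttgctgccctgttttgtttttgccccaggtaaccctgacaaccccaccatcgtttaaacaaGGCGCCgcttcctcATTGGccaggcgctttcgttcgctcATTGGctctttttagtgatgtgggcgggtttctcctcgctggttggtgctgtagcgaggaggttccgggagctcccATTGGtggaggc
Stil: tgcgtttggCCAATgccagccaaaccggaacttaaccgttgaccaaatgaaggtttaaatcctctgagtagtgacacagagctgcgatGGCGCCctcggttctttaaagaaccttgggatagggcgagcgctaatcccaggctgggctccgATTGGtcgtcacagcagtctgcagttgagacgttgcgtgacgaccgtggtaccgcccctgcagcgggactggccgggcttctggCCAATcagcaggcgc
Cep152: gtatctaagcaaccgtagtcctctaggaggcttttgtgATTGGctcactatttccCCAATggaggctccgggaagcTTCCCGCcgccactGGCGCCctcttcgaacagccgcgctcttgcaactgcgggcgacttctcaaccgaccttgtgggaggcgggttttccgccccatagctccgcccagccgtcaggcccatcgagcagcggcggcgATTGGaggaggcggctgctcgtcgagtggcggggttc
Wdr62: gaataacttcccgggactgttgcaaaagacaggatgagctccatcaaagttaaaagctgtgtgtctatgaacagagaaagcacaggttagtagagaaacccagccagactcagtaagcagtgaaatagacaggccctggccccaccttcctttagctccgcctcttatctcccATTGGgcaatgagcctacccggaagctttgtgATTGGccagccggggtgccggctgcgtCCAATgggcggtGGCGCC

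These 4 regions each held 3 CCAAT boxes and 1 GGCGCC, and the share of all windows with 3 CCAAT boxes was not counted. The window of Cep135, whose pattern was like that of Cep152, held 1 CCAAT box, and that of Cdk5rap2, whose pattern was like that of Wdr62, held 0. In Aspm the CCAAT boxes began 113, 88 and 12 bases before the start, and in Wdr62 they began 77, 45 and 18 bases before it. RefSeq windows of 300 bases (250 before the start to 50 after it) were given for 8 of the 9 genes, all but Mcph1. In these windows 7 of 8 genes held GGCGCC (all but Cep63), 5 of 8 held a CCAAT box and 4 of 8 an E2F site (Stil, Cep152, Wdr62 and Cep63). The E2F sites of Stil, 32 and 44 bases after the start, and of Wdr62, 5 bases after it, lie outside the bases printed. In another RefSeq window of Wdr62, with a different start, the site lies 7 bases before the start. Of all 32851 windows, 11.9% held GGCGCC, 37.4% CCAAT and 9.57% an E2F site. Windows of tested genes with a GC content of at least 53%, the lowest among these genes, held GGCGCC in 25.1%, CCAAT in 36.0% and an E2F site in 18.7% of cases. The motif TTTGAA, the cell cycle genes homology region, lay in the windows of Aspm and Cdk5rap2 and in 17.9% of all windows and 8.22% of those with that GC content. A match describes the letters only.

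None of the 9 genes was called between SmadNes and control, with or without the pool name as a block. The genotype comparison asks whether Cre together with the floxed Smad1 and Smad5 alleles changes these transcripts. EdgeR's quasi-likelihood test called 0 of the 9 genes, against 0 of 16869 genes in all (0%), at a Benjamini-Hochberg adjusted p below 0.05. It found 177 genes and none of the 9 at an unadjusted p below that value, and over all genes DESeq2 called 7 and limma-voom 1, again none of the 9. The libraries of the 2 genotypes overlapped for each of the 9 genes, a count not made over all genes tested. Their log2 differences, SmadNes minus control, ran from -0.04 for Cep135 to 0.14 for Stil, with 7 of 9 positive and a median of 0.03, against a median of -0.0004 over all genes tested. The sign turned for Mcph1, Cdk5rap2, Wdr62, Cep135 and Cep152 when single libraries were left out. These fits left out the pool name that pairs the libraries, and edgeR's did not call Smad5 either (adjusted p 0.965). With the pool name as a block, edgeR called 4 of 16869 genes, none of them among the 9.

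**Figure D2:**
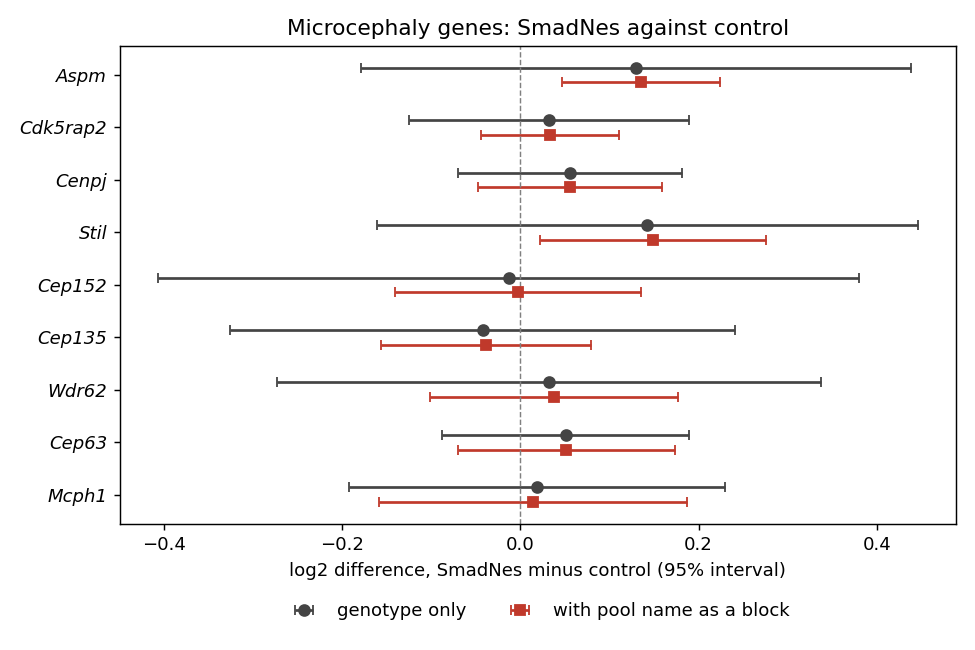
Log2 difference of each gene, SmadNes minus control (x axis), with 95% intervals from edgeR, without (dark grey circles) and with (red squares) the pool name as a block. All 9 dark grey intervals span 0, and with the block only those of Aspm and Stil lie above it. Over all genes, 1051 of 16869 had an unadjusted edgeR p below 0.05 with the block.

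Among the spindle-pole genes, Aspm (chromosome 1, 139454772 to 139494091, GRCm38) keeps spindle poles focused and progenitor divisions symmetric. It stood at 201, 182 and 163 CPM in SmadNes pools SF5_6, SF4 and SF3, and at 189.8, 169 and 140.2 CPM in the control pools of those names. SmadNes was the higher in 3 of 3 pairs, but the genotypes overlapped, since control SF5_6 exceeded SmadNes SF4 and SF3. The log2 difference was 0.13 (SE 0.128), with a 95% interval of 0.883-fold to 1.36-fold. With the pool name as a block, Aspm had an edgeR unadjusted p of 0.00747, ranked 227 of 16869, and an adjusted p of 0.555 (log2 difference 0.14, SE 0.039). In that fit 1051 of 16869 genes, and 2 of the 9, had an unadjusted p below 0.05. It called 4 of 16869 genes (0.0237%), none of them among the 9. Smad5, higher in SmadNes, was one of the 4 (edgeR adjusted p 0.00757), and Smad1 was not (0.257).

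Wdr62 (chromosome 7, 30240138 to 30280419), a scaffold of the spindle pole, stood at 24.1, 28.6 and 24.9 CPM in SmadNes pools SF5_6, SF4 and SF3, against 24.0, 29.6 and 22.4 CPM in the controls. The highest value of each genotype was that of SF4, and SmadNes was the higher in SF5_6 and SF3 and the lower in SF4. The log2 difference was 0.03 (SE 0.126). Cdk5rap2 (chromosome 4, 70216856 to 70410443), of the pericentriolar material, stood at 174, 188 and 174 CPM in SmadNes and 169, 188 and 167 CPM in controls, in the same order of pools. Its SF4 libraries were the highest of both genotypes, and the log2 difference was 0.03 (SE 0.065). Part of its exons, 365 bases, coincides with the pseudogene Ywhaq-ps3 on the same strand, so those reads are shared by estimation.

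Of the genes of centriole assembly, Stil (chromosome 4, 115000159 to 115043196), which links the kinase Plk4 to the cartwheel, had a difference of the size of that of Aspm. It stood at 45.1, 39.9 and 38.3 CPM in SmadNes pools SF5_6, SF4 and SF3, and at 43.1, 37.0 and 31.6 CPM in controls, with SmadNes the higher in 3 of 3 pairs and overlapping groups. The log2 difference was 0.14 (SE 0.126, 95% interval 0.894-fold to 1.36-fold). With the block the edgeR adjusted p was 0.731, at an unadjusted p of 0.0262. For both genes the control library SF3 was the lowest of all 6. Without it the log2 differences in the fit without the block were 0.02 for Aspm and 0.04 for Stil, and without control SF5_6, the highest control, they were 0.23 and 0.25. Without SmadNes SF5_6 they were 0.05 and 0.07, and without SmadNes SF3 they were 0.20 and 0.19. With the block and the SF3 pair left out they were 0.10 and 0.09.

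Cep152 (chromosome 2, 125563088 to 125625113), which recruits Plk4 to the parent centriole, stood at 36.0, 35.9 and 29.1 CPM in SmadNes pools SF5_6, SF4 and SF3, and at 39.2, 36.2 and 26.5 CPM in controls. Both SF3 libraries were low, and SmadNes was the lower of the pair in SF5_6 and SF4 and the higher in SF3. The log2 difference was -0.01 (SE 0.163), with a 95% interval of 0.754-fold to 1.30-fold, which narrowed to 0.907-fold to 1.10-fold with the block. Cep135 (chromosome 5, 76588698 to 76646466), of the cartwheel, stood at 37.4, 34.7 and 31.0 CPM in SmadNes and 39.1, 36.9 and 30.3 CPM in controls, in the same order of pools. It was the lower of the pair in SmadNes SF5_6 and SF4 and the higher in SF3, at a log2 difference of -0.04 (SE 0.117).

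Cenpj (chromosome 14, 56526761 to 56575425), Cep63 (chromosome 9, 102584588 to 102626534) and Mcph1 (chromosome 8, 18595131 to 18803189) were the genes without a call between the pools, described below. Cenpj, whose product carries tubulin to the growing centriole, stood at 50.8, 50.8 and 47.5 CPM in SmadNes pools SF5_6, SF4 and SF3, and at 46.7, 49.4 and 47.4 CPM in controls. SmadNes was the higher in 3 of 3 pairs, and the 95% interval was 0.953-fold to 1.13-fold. Cep63, the partner of Cep152, stood at 36.3, 37.2 and 35.3 CPM in SmadNes and at 36.7, 33.6 and 34.8 CPM in controls, in the same order of pools. Mcph1 stood at 19.8 CPM in SmadNes SF5_6 and at 16.7 and 17.0 CPM in the other SmadNes pools, against 17.2 to 18.0 CPM in controls, so its genotypes lay in opposite order in SF5_6 and in the other pools.

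**Figure D3:**
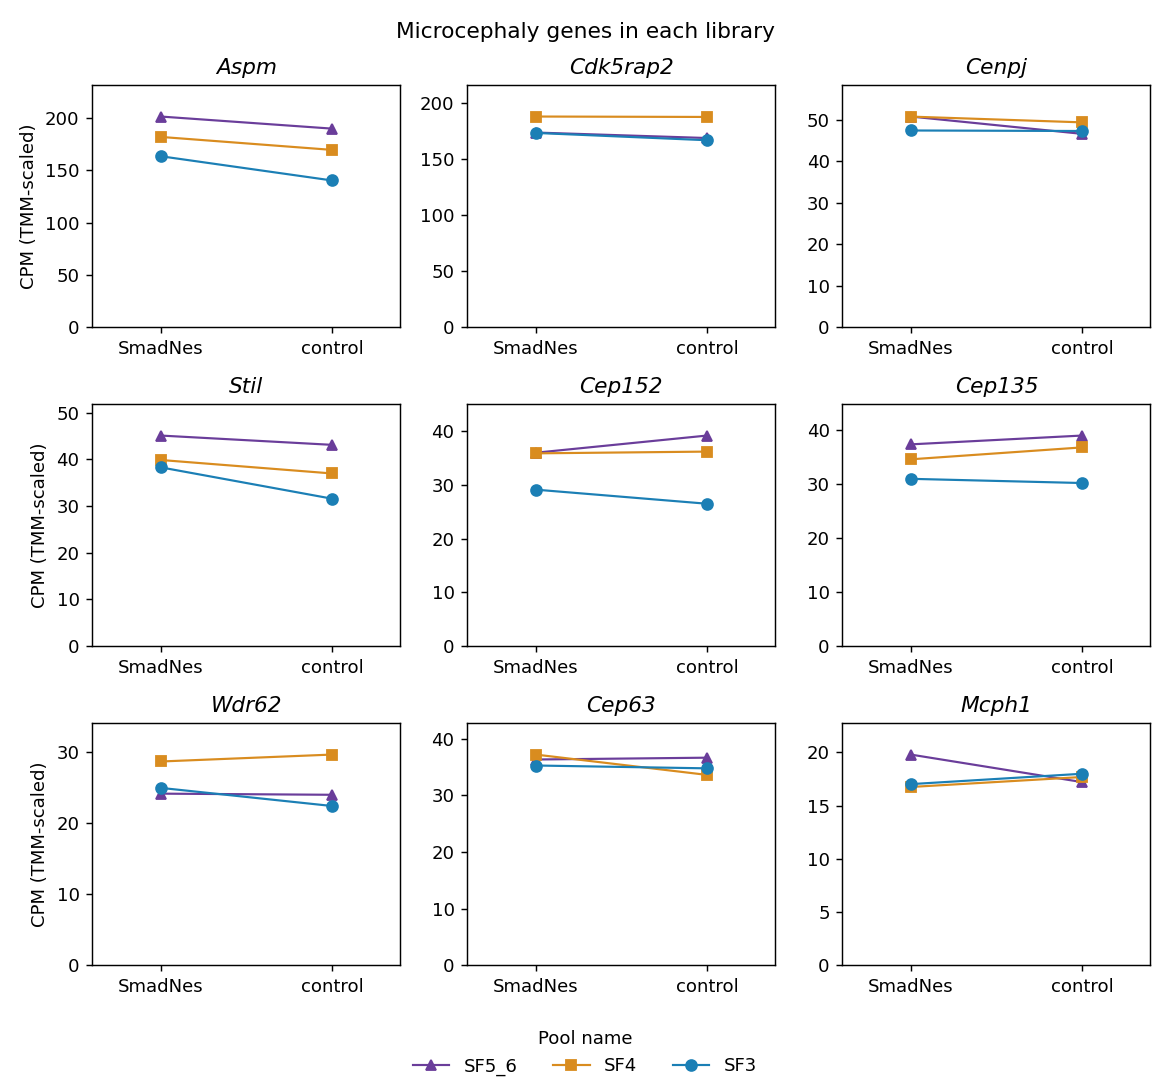
CPM of each gene (y axes, from 0, TMM-scaled) in SmadNes (left) and control (right) libraries; lines join the libraries of 1 pool name. SF5_6 lies highest and SF3 lowest within each genotype for Aspm, Stil, Cep152 and Cep135, and SF4 lies highest for Wdr62 and Cdk5rap2.

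Genes that work with these 9 were not called by genotype either. EdgeR called 0 of 20 other primary microcephaly genes (median log2 difference 0.03), 0 of 21 genes of centriole duplication (0.02), 0 of 27 of the pericentriolar material (0.02) and 0 of 28 of the mitotic spindle and its orientation (0.02). Of the 21 markers of G2 and mitosis 18 had a positive log2 difference, with a median of 0.05 and none called, and Mki67 stood at 804 ± 74.0 CPM in SmadNes and 754 ± 74.6 CPM in controls (SD, n = 3 each). The smallest unadjusted p in these lists, 0.0736, was that of Gpsm1, a regulator of spindle orientation, at 89.4 ± 3.22 CPM in SmadNes and 96.2 ± 3.16 CPM in controls. Cenpe, the kinetochore motor, stood at 179 ± 16.3 and 166 ± 20.95 CPM, Cep192, a scaffold for Plk4, at 103 ± 11.2 and 94.9 ± 9.43 CPM, and Tubgcp5, of the gamma-tubulin ring complex, at 49.2 ± 2.13 and 46.3 ± 0.375 CPM. With the block none of these lists held a called gene.

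Of the 9 genes, 6 differed between the pools. In a fit with genotype as a covariate, edgeR's quasi-likelihood test of the pool name called these 6 of 9, against 28.8% of the 16869 genes tested and 33.9% of the 8395 genes with a mean at least that of Mcph1. What distinguishes the pools is not given in the labels beyond the names, and each name has 1 library per genotype. Aspm averaged 196 CPM in SF5_6, 176 in SF4 and 152 in SF3, and the 3 pools did not overlap, a count not made over all genes tested. Its log2 difference was 0.37 between SF5_6 and SF3 (SE 0.048) and 0.21 between SF4 and SF3 (SE 0.048), with an adjusted p of 0.00172. The difference between SF5_6 and SF3 was thus larger than that between the genotypes, 0.13.

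Stil followed Aspm, at 44.1, 38.4 and 34.9 CPM in SF5_6, SF4 and SF3 (edgeR adjusted p 0.0148). Cep135 averaged 38.2, 35.8 and 30.6 CPM in these pools (0.0136), and Cep152 37.6, 36.0 and 27.8 CPM (0.00523). For Cep152 the step lay between SF3 and the other pools, with log2 differences of 0.43 (SE 0.075) between SF5_6 and SF3 and 0.06 (SE 0.074) between SF5_6 and SF4. For Cep135 these were 0.32 (SE 0.064) and 0.10 (SE 0.063), with 0.22 (SE 0.064) between SF4 and SF3. The 3 pools did not overlap for Cep135, as for Aspm. Wdr62 averaged 24.0 CPM in SF5_6, 29.1 in SF4 and 23.7 in SF3 (0.0232), and Cdk5rap2 171, 188 and 170.3 CPM (0.0464). Both were highest in the SF4 libraries of each genotype, and their log2 differences between SF5_6 and SF3 were 0.02 (SE 0.075) and 0.01 (SE 0.042). Cenpj, Cep63 and Mcph1 were not called (adjusted p 0.53, 0.751 and 0.662), and their highest pool exceeded their lowest by 1.04-fold to 1.07-fold.

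The pool calls rest on few libraries. In edgeR Aspm and Cep152 kept their calls whichever single library was left out. Cdk5rap2 lost its call without any 1 of the 6 (adjusted p 0.052 to 0.406). Wdr62 lost it without control SF4 (0.241) or SmadNes SF4 (0.0704), Cep135 without control SF3 (0.0848) and Stil without control SF5_6 (0.0999). With DESeq2, 3 of the 9 were called, namely Aspm, Cep152 and Stil, against 3161 of 15887 genes tested. Both libraries of a pool name were also left out in turn, alternatives chosen after seeing the data. Without SF5_6 edgeR called Aspm, Cep152 and Wdr62 of the 9, against 1250 of 16917 genes tested. Without SF4, Wdr62 and Cdk5rap2 lost their calls (adjusted p 0.912 and 0.990), and without SF3, Cep152 and Cep135 lost theirs (0.526 and 0.270). Aspm was called in each case.

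**Figure D4:**
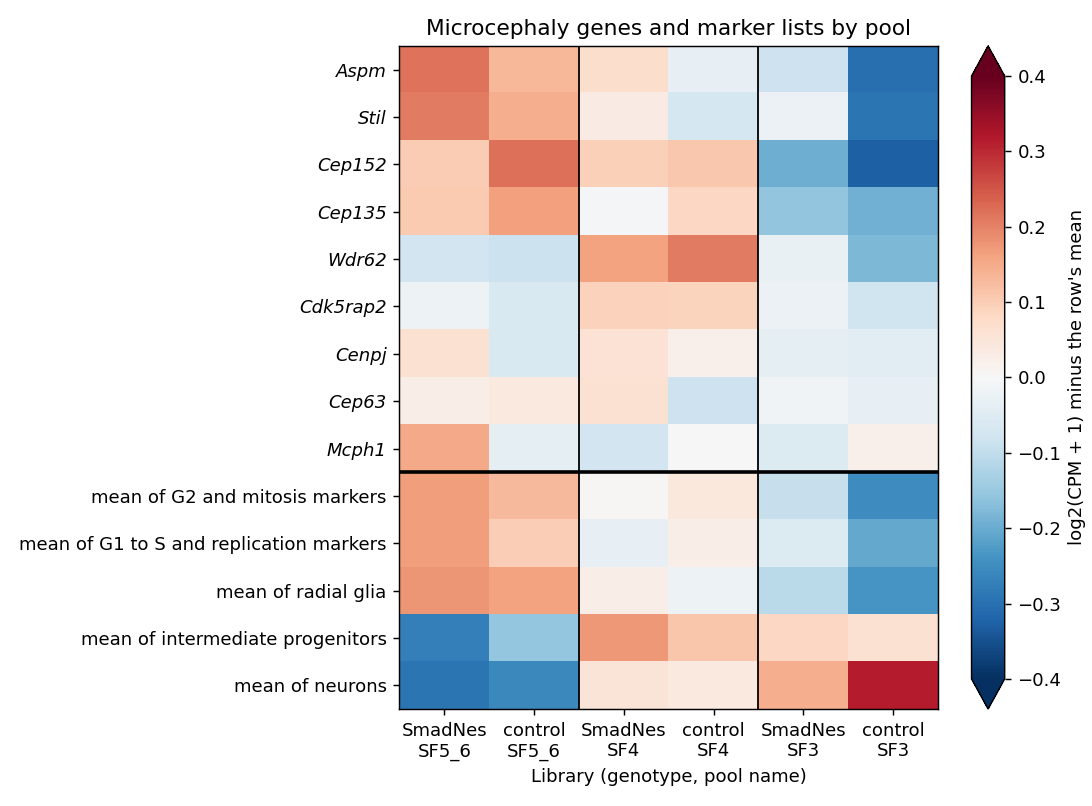
Log2(CPM + 1) of each gene (upper 9 rows) and mean over each marker list (lower 5 rows), minus the row's mean over the 6 libraries (colour), with the libraries ordered by pool name and SmadNes left of control. Aspm, Stil, Cep152 and Cep135 are on average lowest in SF3, as are the lists of dividing cells and radial glia, while Wdr62 and Cdk5rap2 are highest in SF4.

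Markers of dividing cells and of cell types moved with the pools. All 21 markers of G2 and mitosis were higher in SF5_6 than in SF3, with a median log2 difference of 0.31, and 19 of 21 were called by pool name. Their summed level was 3369 and 3194 CPM in SmadNes and control SF5_6, 2977 and 3009 CPM in SF4, and 2795 and 2474 CPM in SF3. Markers of G1 to S and replication had a median of 0.28 between SF5_6 and SF3, and 11 of 21 were called. Among the 14 radial glia genes 11 were called by pool name, and 10 of 14 were higher in SF5_6 than in SF3 (median 0.27), with sums of 3580 and 3494 CPM in SmadNes and control SF5_6 and of 3141 and 2914 CPM in SF3.

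Neuronal markers lay the other way, with 13 of 15 called and a median of -0.51 between SF5_6 and SF3. They summed to 5375 and 5312 CPM in SmadNes and control SF5_6, 6851 and 6549 CPM in SF4, and 7184 and 7726 CPM in SF3. The 11 markers of intermediate progenitors, of which 7 were called, summed to 1662 and 1755 CPM in SF5_6, 2379 and 2274 CPM in SF4, and 2199 and 2210 CPM in SF3, again SmadNes before control. Both lists were lowest in SF5_6, and the progenitor sum was highest in SF4. In SF4, where Wdr62 and Cdk5rap2 were highest, markers of several other cells were lowest. Microglial genes summed to 12.7 and 14.7 CPM in SmadNes and control SF4, against 56.1 to 77.3 CPM in the other libraries. Erythroid genes summed to 123 and 116 CPM in SF4, against 359 to 1109 CPM, and mesenchymal genes to 274 and 443 CPM, against 643 to 1312 CPM. Endothelial genes summed to 18.6 to 25.5 CPM over the 6 libraries. Ventral forebrain genes were highest in SF5_6, at 211 and 306 CPM in SmadNes and control, with 70.1 and 75.3 CPM in SF4 and 73.4 and 117 CPM in SF3. Some of these lists also lay to one side by genotype, with no gene called: SmadNes minus control was positive for 0 of 10 ventral forebrain genes (median log2 difference -0.67), 0 of 8 erythroid genes (-0.53), 4 of 15 neuronal genes (-0.09) and 10 of 10 mesenchymal genes (0.19). It was also positive for 19 of 21 markers of G1 to S and replication, 18 of 21 of G2 and mitosis and 12 of 14 radial glia genes (medians of 0.05 each). Among intermediate progenitor, microglial and endothelial genes it was positive for 6 of 11, 4 of 8 and 4 of 6. The median over all genes tested was -0.0004. Of the lists to one side, only the ventral forebrain and radial glia sums kept their direction in each pair of pools. The erythroid, mesenchymal, G2 and mitosis, and G1 to S sums turned in SF4, and the neuronal sum in SF4 and SF5_6. The genes of a list are not independent measurements. With the block, edgeR gave an unadjusted p below 0.05 to 1051 of 16869 genes. Among these were 8 of 10 ventral forebrain, 4 of 8 erythroid, 6 of 15 neuronal and 3 of 14 radial glia genes. They also included 4 of 21 markers of G2 and mitosis, 1 of 21 of G1 to S and 1 of 11 of intermediate progenitors. None of the mesenchymal, microglial or endothelial genes was among them. No gene of these lists was at 0 in all 6 libraries. The part of these cells in the pool and genotype values of the 9 genes was not tested.

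Among the partner lists, 17 of 28 spindle genes were called by pool name, 9 of 20 other primary microcephaly genes, 5 of 21 genes of centriole duplication and 5 of 27 of the pericentriolar material. The last pair of shares, 23.8% and 18.5%, lies below the 28.8% of all genes. Plk4, the kinase that starts centriole duplication, stood at 68.8 and 66.3 CPM in SmadNes and control SF5_6 and at 52.3 and 45.8 CPM in SF3. Sass6, of the cartwheel, stood at 40.6 and 40.4 CPM in SF5_6 and at 36.2 and 35.2 CPM in SF3. Pcnt, a scaffold of the pericentriolar material, stood at 112 and 115 CPM in SF5_6, 122 and 120.5 CPM in SF4, and 115 and 109 CPM in SF3, so SF4 was the highest pool of both genotypes. Plk4, Sass6 and Pcnt were chosen after their values were seen.

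Profiles across the 6 libraries were alike for some of the 9 genes. Of the 36 pairs, Pearson's r of log2(CPM + 1) was highest for Aspm with Stil (0.979) and for Cdk5rap2 with Wdr62 (0.979), followed by Cep135 with Cep152 (0.963), Aspm with Cep152 (0.870) and Aspm with Cep135 (0.841). The highest r with any of the other genes was 0.701 for Cenpj, 0.633 for Cep63 and 0.368 for Mcph1. The median over all pairs was 0.332, and 5 pairs were below 0, the lowest being Mcph1 with Wdr62 (-0.369). Libraries of 1 pool name deviated together, so these values describe 6 libraries under 3 pool names. Among 11295 genes compared, all averaging 5 CPM or more, Emx2, a patterning factor of the dorsal cortex, and Stat5b had the profiles most like that of Aspm (r = 0.999 and 0.998). For Cep152 they were Ccdc14 and the growth factor receptor Fgfr2 (0.999 and 0.998), and for Stil Chd1l and Prr5l (0.996 and 0.995). For Cep135 they were Lrch3 and Rnf145 (0.991 each), for Wdr62 Stk24 and Atad3a (0.988 and 0.986), and for Cdk5rap2 Atxn7 and Fam76b (0.99 each). The genes not called between pools had Rev3l and Fgfrl1 (Cenpj, 0.981 and 0.977), Cyb5r4 and Zscan22 (Mcph1, 0.988 and 0.986) and Syap1 and Selenof (Cep63, 0.981 and 0.969) nearest to them. Each of these r was picked as among the highest of 11295 over 6 libraries, so its height alone carries little information.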

How the data were processed

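Per the labels' protocols, STAR 2.5.3a aligned stranded paired-end reads to GRCm38 and RSEM 1.3.0 quantified isoforms on GENCODE M15. The authors' expected counts were deposited per gene in whole numbers, unscaled, and the labels do not say how isoforms were summed or rounded. DESeq2 1.18 is named without a role in the submitters' processing notes. All 6 value columns were used. Gene positions and exon lengths came from GENCODE M21, of the same build, and 52489 of 52636 genes matched by ID.

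Counts were tested over all genes with edgeR 4.0.16 in R 4.3.3 (quasi-likelihood F test, TMM scaling, filterByExpr by genotype, Benjamini-Hochberg adjustment), with genotype as the term and, for the pools, a test of the pool name with genotype as a covariate. DESeq2 1.42.0 and limma-voom (limma 3.58.1) were alternatives. Standard errors are the log2 difference over the root of F. The fits were tested on simulated data. A library holds at least 32997423 counts, so 3 counts, the limit of a count of 0, are at most 0.0909 CPM, for counting error only. The p-values of the genotype fit without the block rest on the spread between pools, whose embryos and litters the labels do not number. With the pool name in the fit, as block or as tested term, they rest on what is left between libraries of a name after genotype.

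The pool names pair the libraries: deviations from the genotype mean correlated at 0.628, 0.763 and 0.832 between libraries of 1 name over 16869 genes, and the labels speak of pairs. EdgeR's common coefficient of variation was 0.0556 when the name was a block, against 0.198 otherwise. The genes and lists were chosen with earlier results of these data known. The rule for named genes took the 9 genes, Smad1, Smad5, Prom1, the 3 genes of lowest unadjusted p in each list, and the 2 genes most like each of the 9.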

Additional observations from a re-analysis of the deposited data

How the results depend on the processing

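None of the 9 genes was called by genotype under any of the 17 alternatives run, while the count over all genes, 0, became 7 with DESeq2, 1 with limma-voom and 4 with the replicate block, and with the block 13 with DESeq2 and 8 with limma-voom. With the replicate block and the pair SF3, SF4 or SF5_6 left out, 10, 48 and 149 genes were called. Aspm, Stil, Cenpj and Cep63 stayed positive under all 17. With single libraries left out, the log2 difference ran from -0.0626 to 0.061 for Mcph1, -0.0084 to 0.0851 for Cdk5rap2, -0.0493 to 0.16 for Wdr62, -0.14 to 0.0274 for Cep135 and -0.16 to 0.10 for Cep152. With the block, Wdr62 stood at -0.0186 without the SF3 pair, Cep152 at 0.0015 without SF4 and 0.0593 without SF5_6, and Mcph1 at -0.0796 without SF5_6. By pool name, DESeq2 called 3 of the 9 and 3161 of 15887 genes tested. Without both SF5_6 libraries edgeR called 3 of the 9 and 1250 of 16917 genes. The other pool alternatives called 4 to 6 of the 9. Over all genes they called between 3380 of 17134 (without control SF5_6) and 6357 of 28368 (without the filter on low counts). With the longest transcript as length, 5 of the 9 genes kept their rank. The cause of these changes was not tested. The intervals of the fit without the block are wider than those with it, and 3 pools per genotype limit both.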
